A study of Homo sapiens with 8 samples.

Results

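CSF1R, FGL2 and TYROBP are 3 genes of monocytes and macrophages, and their expression was followed over 8 arrays of MOLM-14, an established human acute myeloid leukaemia cell line of monocytic character. The 3 were picked from 14884 named genes on their measured contrast between the hairpin groups, so that contrast is given here as a description and was not tested. Each is represented by its only named probe set, and all 3 were found. One group (shCD39, 4 arrays) carried a short hairpin RNA aimed at ENTPD1, which encodes the ectonucleotidase CD39, and the other (shCTRL, 4 arrays) carried a scrambled hairpin. Cells of both groups had been kept in doxycycline for 72 h. The labels name the 4 arrays of a group technical replicates and speak of clones, without giving their number. The error bars, the SE and the p-values therefore rest on the spread between arrays only.

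CSF1R is a receptor tyrosine kinase that binds the cytokines CSF1 and IL-34 and carries the survival and maturation signal of the mononuclear phagocyte lineage. TYROBP, also called DAP12, is a small transmembrane adaptor that lends its immunoreceptor tyrosine-based activation motif (ITAM) to receptors such as TREM1, TREM2 and SIRPB1, and passes the signal on through the kinase SYK. FGL2 is a member of the fibrinogen family that occurs as a membrane-bound prothrombinase and as a secreted protein that binds inhibitory Fc receptors. All 3 are expressed as myeloid progenitors mature towards monocytes, a programme in which the transcription factor PU.1 (gene SPI1), C/EBP, RUNX and AP-1 factors take part.

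That the 3 genes were higher together reflects their choice on this contrast. The sequence before their start sites is shown as a description, as RefSeq gives it on GRCh38.p14. Each stretch holds the 250 bases upstream of a start site, 5′ to 3′ on the gene's strand, and all 3 genes lie on the minus strand. Capitals mark matches, on either strand, to GAGGAA (the core bound by PU.1), TGTGGT (RUNX), TTGCNNAA (C/EBP) or TGANTCA (AP-1). For CSF1R the table lists an upstream and a downstream start site, of which the downstream one is shown.
CSF1R, chr5:150086555-150086804: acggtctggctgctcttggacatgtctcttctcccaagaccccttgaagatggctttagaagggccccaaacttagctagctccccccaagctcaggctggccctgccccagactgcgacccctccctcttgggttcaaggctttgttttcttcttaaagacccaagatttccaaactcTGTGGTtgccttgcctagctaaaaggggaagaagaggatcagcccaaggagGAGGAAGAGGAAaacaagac
FGL2, chr7:77199820-77200069: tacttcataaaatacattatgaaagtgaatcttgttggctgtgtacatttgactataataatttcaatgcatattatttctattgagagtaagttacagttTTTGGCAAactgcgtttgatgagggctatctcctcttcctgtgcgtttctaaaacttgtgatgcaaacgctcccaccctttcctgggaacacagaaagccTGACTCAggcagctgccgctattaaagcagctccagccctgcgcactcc
TYROBP, chr19:35908296-35908545: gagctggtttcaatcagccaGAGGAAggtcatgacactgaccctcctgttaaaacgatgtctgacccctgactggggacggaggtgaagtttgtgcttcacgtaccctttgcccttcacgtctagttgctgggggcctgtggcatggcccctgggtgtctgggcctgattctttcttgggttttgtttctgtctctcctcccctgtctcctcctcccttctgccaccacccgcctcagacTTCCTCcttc

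The CSF1R stretch held 2 adjoining GAGGAA matches, which begin 20 and 14 bases before the start site, and 1 TGTGGT match that begins 71 bases before it. The stretch before the upstream CSF1R start site (chr5:150113366-150113615) held 1 AP-1 match, 34 bases before the start. TYROBP held 2 GAGGAA matches, beginning 230 and 10 bases before the start, the nearer one on the opposite strand. FGL2 held 0 GAGGAA matches, 1 AP-1 match 49 bases before the start and 1 C/EBP match on the opposite strand at 149 bases. Among 35116 promoters of the same length, GAGGAA was found in 23.6%, TGTGGT in 3855 promoters, TTGCNNAA in 9.05% and TGANTCA in 6.57%. No motif of the 4 was shared by all 3 genes. A match is a match of letters and not a measured site.

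Across the series, 53617 probe sets were measured, and the median log2 value of an array lay between 3.13 and 3.17. Of the genes that characterise the line, FLT3 read at most 9.77, MPO 6.26 to 8.19, LYZ (lysozyme) 8.72 to 10.63, SPI1 6.84 to 7.41 and CD4 6.53 to 7.28 over the 8 arrays, whereas CD14, the co-receptor of mature monocytes, read 2.18 to 2.73. ENTPD1, the target of the hairpin, had a log2 difference of -0.79 (SE 0.25, limma adjusted p = 0.178), which did not pass the threshold, and in 1 of 16 pairings of a shCD39 with a shCTRL array the shCD39 array was higher. Over all genes, 14 passed an adjusted p of 0.05 (limma, Benjamini-Hochberg), which is 0.0941% of those tested. Without shCD39 array 4 the share was 2.84%, or 423 genes, of which 111 were higher in shCD39. An unadjusted p under 0.05 was found for 2183 genes, or 14.7%, and a positive difference for 7740 of the 14884; the list counts given further on are to be read against these shares.

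CSF1R read 5.67, 6.72, 6.29 and 5.11 in shCD39 arrays 1 to 4 and 4.24, 4.76, 4.82 and 4.53 in shCTRL arrays 1 to 4 (log2 values). Every shCD39 array lay above every shCTRL array, by 0.29 for array 4 and by 1.48 for array 3 against the highest control, with array 2 higher still. The means were 5.95 ± 0.71 and 4.59 ± 0.26 (SD, n = 4 arrays each), a log2 difference of 1.36 (SE 0.29) or 2.57-fold. In a bulk culture, more cells expressing the receptor and more RNA per cell cannot be told apart, here and in what follows. The receptor was thus the gene with the 5th highest difference in the whole table, a place that its choice already reflects.

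TYROBP read 9.97, 10.11, 10.08 and 9.06 in shCD39 arrays 1 to 4, against 8.79, 8.90, 8.88 and 8.41 in the shCTRL arrays. Arrays 1 to 3 of shCD39 lay close together, while array 4 stood only 0.16 above the highest control. The group means were 9.80 ± 0.50 and 8.74 ± 0.23 (SD, n = 4 arrays each), a log2 difference of 1.06 (SE 0.22) or 2.09-fold.

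FGL2 read 6.53, 8.07, 7.88 and 6.29 in shCD39 arrays 1 to 4, and 5.76, 5.73, 6.85 and 5.69 in the shCTRL arrays. Here the groups overlapped: shCTRL array 3 lay above shCD39 arrays 1 and 4, so that 14 of the 16 pairings of a shCD39 with a shCTRL array had the shCD39 array higher, against 16 of 16 for CSF1R and for TYROBP. The means were 7.19 ± 0.91 and 6.01 ± 0.56 (SD, n = 4 arrays each), a log2 difference of 1.18 (SE 0.40) or 2.27-fold. Without shCTRL array 3 the groups no longer overlapped and the difference was 1.47. No overlap with shCD39 higher was found in 3.61% of all genes and with shCD39 lower in 4.23%; since the contrast chose the members, nothing is read from 2 of 3 being free of overlap.

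**Figure D1:**
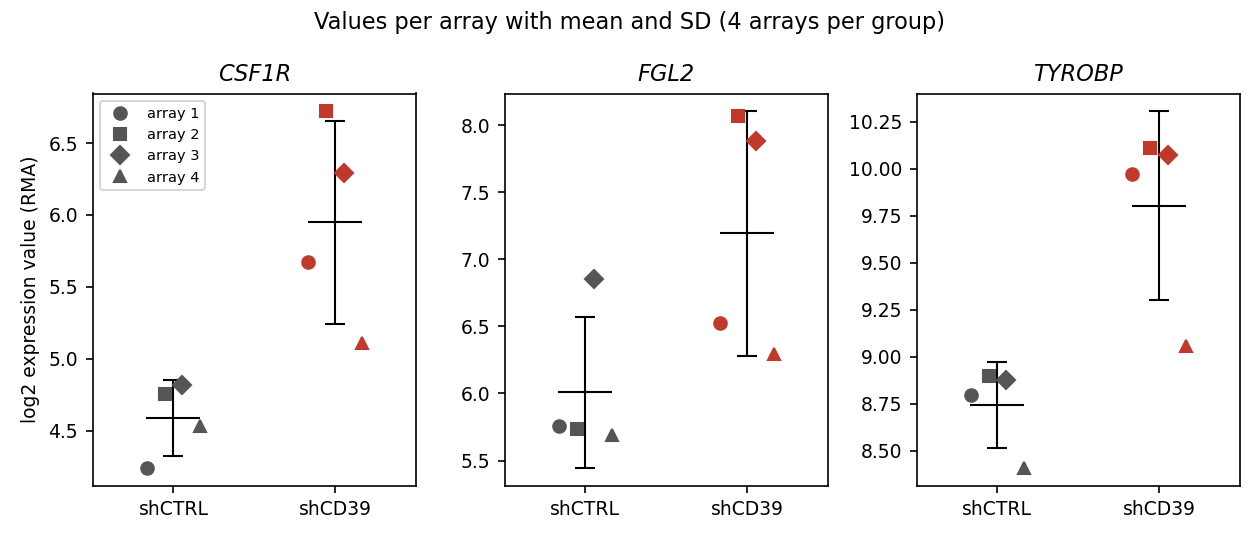
Log2 expression values of CSF1R, FGL2 and TYROBP in the 4 shCTRL (grey) and 4 shCD39 (red) arrays, 1 symbol per array number, with the mean and SD as bars; each panel has its own vertical scale, which does not start at 0. In all 3 panels shCD39 array 2 is the highest and array 4 the lowest of its group, and the FGL2 value of 6.85 in shCTRL array 3 lies among the shCD39 values.

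The 3 genes agreed on the order of the shCD39 arrays. Each placed array 2 highest, then 3, then 1, then 4, so all 6 pairs of shCD39 arrays were ordered alike in every pair of members. For TYROBP, arrays 2, 3 and 1 read 10.11, 10.08 and 9.97, so their order rests on small gaps. This order, noted after the values were seen, was held by 505 of the 14884 genes, or 3.39%. Among the 63 measured markers of monocytes and macrophages it was held by 7, or 11.1%. Array 4 was the lowest of its group in 27.5% of all genes and in 42 of 63 measured markers of monocytes and macrophages. Within shCTRL the agreement was looser, with 4 of 6 pairs of arrays ordered alike for each of the 3 pairs of members. CSF1R and FGL2 were highest in shCTRL array 3 and TYROBP in shCTRL array 2. In sum, 30 of 36 within-group comparisons agreed, and these do not use the difference between the groups. They are the same 12 pairs of arrays taken for 3 pairs of members, so they are not independent.

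The spread inside the groups was wide for all 3. In shCD39, the SD of FGL2 exceeded that of 99.8% of all genes, that of CSF1R 99.3% and that of TYROBP 96.7%. In shCTRL the corresponding shares were 99.3%, 84.1% and 76.7%. Relative to the shCTRL mean, CSF1R stood at 2.13 in shCD39 array 2 and at 0.52 in array 4, FGL2 at 2.06 and 0.29, and TYROBP at 1.37 and 0.31 (log2 units). Array 4 thus stood close to the controls for all 3 genes and array 2 far from them.

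ENTPD1 itself ran nearly the other way across the shCD39 arrays. It read 2.42, 2.14, 2.72 and 2.95 in arrays 1 to 4, so the array with the lowest ENTPD1 value (array 2) had the highest values of all 3 members and the array with the highest (array 4) the lowest. These ENTPD1 values all lay below the array medians of 3.13 to 3.17, a low level for an order to rest on. For each member, 5 of the 6 pairs of shCD39 arrays were ordered opposite to ENTPD1. An equal or stronger opposition was found in 13.9% of all genes and in 16 of 63 monocyte and macrophage markers. Inside shCTRL, 3 of 6 pairs were ordered alike with ENTPD1 for CSF1R and for FGL2, and 1 of 6 for TYROBP. ENTPD1 had the same order, 4, 3, 1, 2, in both groups, and TYROBP had 2, 3, 1, 4 in both. The opposition of TYROBP to ENTPD1 was thus not particular to shCD39. The TYROBP order rests on small gaps, since its values in arrays 1 to 3 lay close together in both groups. Whether the ENTPD1 level has a part in the members' values was not tested.

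Leaving out single arrays changed the size of the difference. CSF1R ranged from 1.11 without shCD39 array 2 to 1.64 without shCD39 array 4, and FGL2 from 0.89 to 1.48 without the same arrays. TYROBP ranged from 0.95 without shCTRL array 4 to 1.31 without shCD39 array 4. With both arrays numbered 4 left out, the differences were 1.62, 1.38 and 1.20. The FGL2 groups still overlapped without any other single array than shCTRL array 3. The SE of TYROBP was the smallest of the 3 with all arrays, and that of FGL2 the largest.

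**Figure D2:**
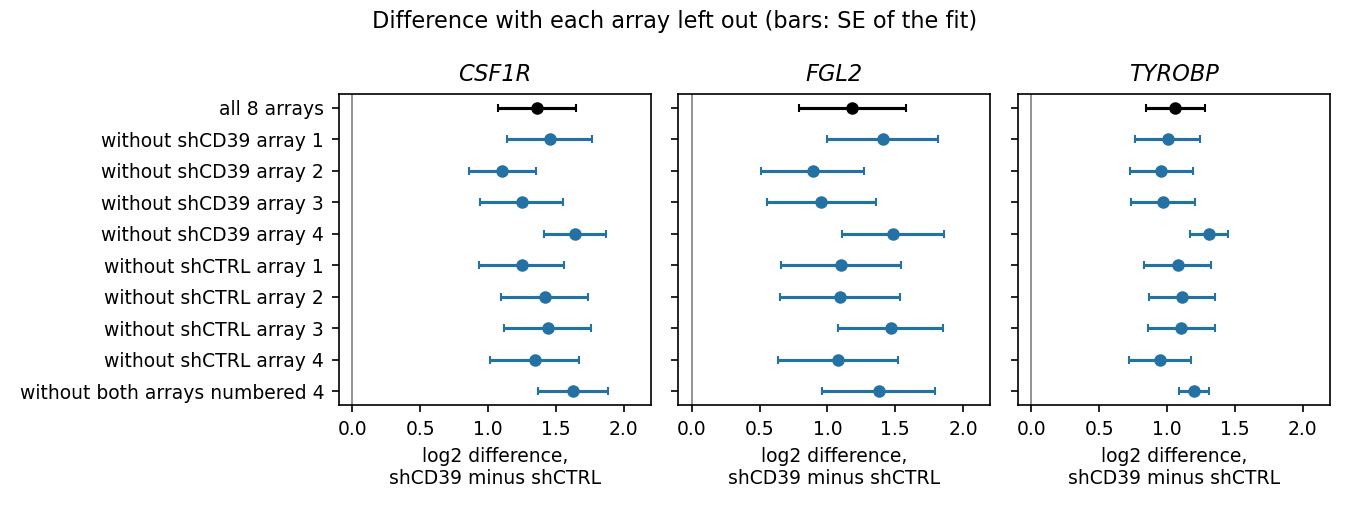
Log2 difference (shCD39 minus shCTRL, horizontal axis) of CSF1R, FGL2 and TYROBP with all 8 arrays, without each array in turn and without both arrays numbered 4; bars are the SE of the fit and the grey line marks 0. All points lie between 0.89 and 1.64, with the highest value of each gene reached without shCD39 array 4.

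The genes most like each member were those with the smallest root mean square (RMS) difference between profiles over the 8 arrays, each centred on its own mean. Because the profiles hold the contrast, the likeness is a description. For CSF1R the 5 nearest of all named genes were LYZ (lysozyme, RMS difference 0.317 log2 units), CD86 (a co-stimulatory ligand of antigen-presenting cells, 0.320), TYROBP (0.327), FGL2 (0.352) and TGM5, a transglutaminase (0.376). The median gene lay 0.836 away. LYZ read 10.10, 10.18, 10.63 and 9.25 in the shCD39 arrays and 8.72 to 9.13 in shCTRL.

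FGL2 was nearest to CD180 (RMS difference 0.205), a Toll-like receptor homologue of myeloid and B cells, then to CD86 (0.346), CSF1R (0.352), NCF1C (0.398) and CD209, a C-type lectin (0.427). CD180 shared the raised value in shCTRL array 3: it read 5.82 there against 4.51 to 4.98 in the other controls, and 5.67, 6.67, 7.08 and 5.13 in the shCD39 arrays. CD209 read 5.48 in shCTRL array 3 and 4.35 to 4.80 in the others. NCF1C is a near-identical copy of NCF1, a subunit of the phagocyte oxidase, so its probe set may not separate the copies. TYROBP stood 12th in likeness to FGL2, at 0.502.

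TYROBP was nearest to SAT1, a polyamine acetyltransferase (RMS difference 0.195), LYZ (0.234), the AP-1 subunit JUN (0.245), the chemokine CCL24 (0.265) and RRM2B, a ribonucleotide reductase subunit (0.268). CSF1R was 25th and FGL2 865th. With each group centred on its own mean, which removes the contrast, TYROBP was 60th and FGL2 269th in likeness to CSF1R among all genes. In likeness to FGL2 so centred, CSF1R was 7th and TYROBP 183rd, and in likeness to TYROBP, CSF1R was 1975th and FGL2 13487th. By this measure the members were not one another's closest genes throughout. The RMS difference depends on the size of the spread as well as on the pattern. So centred, the RMS of the profile itself was 0.655 for FGL2, 0.461 for CSF1R and 0.337 for TYROBP. The low rank of FGL2 beside TYROBP therefore cannot be read as an unlike pattern. FGL2 and TYROBP ordered 10 of 12 within-group pairs of arrays alike. JUN read 4.62, 4.36, 4.87 and 3.93 in shCD39 and 3.17 to 3.69 in shCTRL, with no overlap.

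CSF1 read 3.71 to 3.84 in shCD39 and 3.52 to 3.71 in shCTRL, a log2 difference of 0.14 (SE 0.10, limma adjusted p = 0.571), and IL34 had 0.10 (SE 0.17, adjusted p = 0.840). Of the 18 measured genes of the ligand and signalling list (30 listed), 0 passed limma's adjusted threshold and 4 had an unadjusted p under 0.05, against 14.7% of all genes. Their median difference was 0.07, against 0.01 over all genes. The 3 with the largest differences were SOCS1 and SOCS3, inhibitors of cytokine signalling, at 0.63 (SE 0.12, adjusted p = 0.0788) and 0.42 (SE 0.16, adjusted p = 0.254), and the docking protein GAB2 at -0.54 (SE 0.26, adjusted p = 0.369). SOCS1 passed without shCD39 array 4.

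In the list of other cytokine receptors and ligands of myeloid growth, 10 of 20 genes were measured and 0 passed by limma, with 2 at an unadjusted p under 0.05 (14.7% of all genes) and a median of 0.14. The largest differences were those of KITLG, the ligand of KIT (0.67, SE 0.24), KIT (0.30, SE 0.13) and FLT3 (-0.29, SE 0.15). FLT3, a receptor kinase of the same family as CSF1R, read 9.53, 9.24 and 9.74 in shCD39 arrays 2 to 4, lower in array 1, and 9.60 to 9.77 in shCTRL, with overlap.

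Of the receptors that use TYROBP and its sister adaptors, 18 of 37 were measured and 0 passed by limma, with 6 at an unadjusted p under 0.05 (14.7% of all genes) and a median of 0.08. TREM2, a lipid receptor of macrophages and microglia, had a log2 difference of 1.28 (SE 0.42, adjusted p = 0.197), carried by arrays 1 and 3. It read 5.00, 2.91, 4.93 and 3.28 in shCD39 and 2.39 to 3.27 in shCTRL, so array 2, the highest for all 3 members, lay inside the control range. SIRPB1, an activating receptor of the signal-regulatory protein family, read 7.36, 6.39, 7.35 and 6.25 in shCD39 and 5.72 to 6.25 in shCTRL (log2 difference 0.81, SE 0.25, adjusted p = 0.171). It passed without shCD39 array 4. The adaptor and these receptors did not share their array pattern: the receptors were highest in arrays 1 and 3, the adaptor nearly level over arrays 1 to 3.

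PLXNA1, a semaphorin receptor that can associate with TREM2 and TYROBP, had -0.75 (SE 0.18, adjusted p = 0.103) and passed, as lower, without shCTRL array 4. Over all 14884 genes, 48 passed in that setting. TREM1 had 0.15 (SE 0.20, adjusted p = 0.792). HCST, the sister adaptor DAP10 whose gene neighbours TYROBP on chromosome 19, read 7.12 to 7.74 in shCD39 and 6.71 to 7.24 in shCTRL, a log2 difference of 0.41 (SE 0.16, adjusted p = 0.259). The neighbour on the other side, LRFN3, had 0.12 (SE 0.15). CCDC146, which overlaps FGL2 on chromosome 7, had 0.14 (SE 0.11), and HMGXB3 beside CSF1R on chromosome 5 had 0.01 (SE 0.11). CLEC5A, FCER1G and ITGAM, and the FGL2 receptor FCGR2B, had no probe set named here and were not analysed.

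Below the receptors, SYK read 7.14 to 7.59 in shCD39 and 7.19 to 7.51 in shCTRL, a difference of 0.05 (SE 0.12, adjusted p = 0.899). Of 19 measured kinases and adaptors of the ITAM pathway (32 listed), 0 passed by limma, 1 had an unadjusted p under 0.05 (14.7% of all genes), and the median was 0.03. The largest differences were those of the kinase SRC (0.40, SE 0.14), the adaptor LCP2 (0.30, SE 0.14) and the paracaspase MALT1 (-0.27, SE 0.13).

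**Figure D3:**
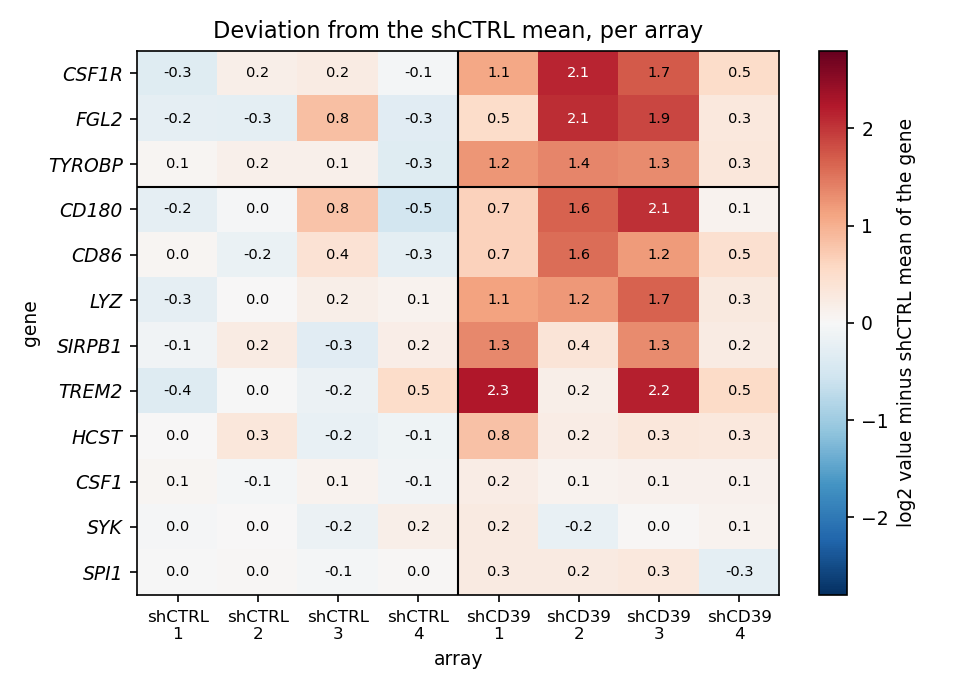
Deviation of each array from the gene's shCTRL mean (log2 units, colour and printed value) for the 3 members above the line and 9 other genes below it, with shCTRL arrays left and shCD39 arrays right. Among shCD39 arrays, CD180 and CD86 are raised most in arrays 2 and 3, like CSF1R and FGL2. LYZ is raised in arrays 1, 2 and 3, like TYROBP. TREM2 and SIRPB1 are raised most in arrays 1 and 3, while CSF1, SYK and SPI1 stay close to the control mean.

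Genes that share the fibrinogen domain of FGL2, with its receptors, gave 18 measured of 24. MFAP4, an extracellular matrix protein with such a domain, was the 1 that passed and it fell, by 1.69 on the log2 scale (SE 0.26, adjusted p = 0.0432). Leaving out 1 array in turn kept the call in 3 of 8 settings, with an adjusted p from 0.0154 to 0.193; it was lost without shCD39 array 2 or 3 and without shCTRL array 1, 2 or 3. The others lay between -0.20 and 0.34, and the median was -0.02. By limma 1 of the 18 passed, against 0.0941% of all genes, and 2 had an unadjusted p under 0.05, against 14.7%. MFAP4 read 8.77, 7.42, 7.74 and 8.17 in shCD39 and 9.38 to 10.07 in shCTRL, without overlap. Of the coagulation and fibrinolysis list, to which FGL2 is tied as a prothrombinase, 13 of 23 genes were measured. All 13 had positive differences, against 7740 of 14884 over all genes, with a median of 0.10 and the largest at 0.34 for F2R, the thrombin receptor (SE 0.12, adjusted p = 0.229). PROS1 (0.30, SE 0.15) and F7 (0.30, SE 0.11) followed. In that list 0 passed by limma and 2 of 13 had an unadjusted p under 0.05, a share near the 14.7% of all genes.

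Among transcription factors, SPI1 read 7.38, 7.36, 7.41 and 6.84 in shCD39 and 7.06 to 7.16 in shCTRL, a log2 difference of 0.13 (SE 0.13, adjusted p = 0.724). Arrays 1 to 3 of shCD39 lay above all controls and array 4 below them, the same array that was lowest for the 3 members. Of 34 measured transcription factors of the lineage (52 listed), TFEC, a MITF family factor of macrophages, was the 1 that passed. Its call, like that of MFAP4, was known from earlier results of these data. TFEC read 4.42, 4.53, 4.89 and 4.42 in shCD39 and 3.56 to 3.88 in shCTRL. It rose by 0.85 on the log2 scale (SE 0.13, adjusted p = 0.0432). The call held in 1 of 8 settings that leave out an array, the one without shCD39 array 4, with an adjusted p from 0.0121 to 0.193. Without shCD39 array 4, JUN, FOS and KLF2 passed too, all higher, against 2.84% of all genes called in that setting. With all arrays, 1 of the 34 passed by limma, against 0.0941% of all genes, and 7 had an unadjusted p under 0.05, against 14.7%. The median of the list was 0.12.

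Of 109 listed markers of monocytes and macrophages, 63 were measured, 56 with positive differences (7740 of 14884 over all genes), and the median was 0.19 against 0.01 over all genes. Such a lean was not particular to this list. Fibroblast and epithelial genes had 8 of 9 positive (median 0.21), and T and NK cell genes 11 of 13 (median 0.15). By limma 0 of the 63 markers passed, with 20 of 63 at an unadjusted p under 0.05, against 14.7% of all genes. Groups did not overlap in 10 of the 63 with shCD39 higher, against 3.61% of all genes. In 1, the cytokine IL18 (-0.70, chosen after its value was seen), they did not overlap with shCD39 lower, against 4.23%. Of the T and NK cell genes 2 of 13, and of the fibroblast and epithelial genes 2 of 9, were also free of overlap with shCD39 higher. The largest differences were those of CD180 (1.12, SE 0.39, adjusted p = 0.217), the calcium-binding alarmin S100A8 (1.11, SE 0.25, adjusted p = 0.0908) and LYZ (1.07, SE 0.24, adjusted p = 0.0926). CD14 had 0.09 (SE 0.14, adjusted p = 0.811). S100A8 read 6.92, 5.94, 6.84 and 6.19 in shCD39 and 4.98 to 5.90 in shCTRL, highest in arrays 1 and 3 and so in another order than the members.

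Without shCD39 array 4, 10 of the 63 markers passed, all higher, and the median was 0.28. Over all genes 423 passed in that setting, or 2.84%, with 111 of them higher. Array 4 was the lowest of its group in 42 of the 63 markers. Leaving it out raises those differences, so nothing is read from their direction. The 10 were LYZ, CD86, S100A8, S100A9, GRN (progranulin), PSAP (prosaposin), AOAH, EVI2B, PTAFR and TLR1, named after their values were seen. Without shCTRL array 4, S100A9 passed, and 48 of all 14884 genes passed in that setting. The progenitor and granule list had 20 of 30 genes measured, 0 passing by limma, 7 at an unadjusted p under 0.05 (14.7% of all genes) and a median of 0.03. Its largest differences were those of the ectoenzyme CD38 (0.80, SE 0.16, adjusted p = 0.0801), which passed without shCD39 array 4, PRTN3 (0.51, SE 0.22) and SMIM24 (0.45, SE 0.16).

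Markers of other cell types were read beside the members, since NK cells also express TYROBP. In the T and NK cell list, 13 of 20 genes were measured and 11 had positive differences (median 0.15). Their mean level ran from 3.91 to 4.26 in shCD39 and from 3.76 to 3.94 in shCTRL. IL7R, the interleukin-7 receptor, read 6.47, 5.66, 7.19 and 4.50 in shCD39 and 4.08 to 4.73 in shCTRL (1.53, SE 0.43, adjusted p = 0.147) and passed without shCD39 array 4. NKG7 had 0.50 (SE 0.13) and PRF1 0.34 (SE 0.16). Of the 9 measured fibroblast and epithelial genes of 16, 8 had positive differences. Their median was 0.21 and their mean levels 3.44 to 3.58 against 3.20 to 3.39, led by CLDN4 (0.43), THY1 (0.29) and KRT8 (0.25).

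Granulocyte genes (17 measured of 22, median 0.04, BPI 0.39, OLFM4 0.31, LTF 0.24) had mean levels of 2.94 to 3.03 in shCD39 and 2.92 to 3.03 in shCTRL. B and plasma cell genes (9 of 15, median 0.05, PAX5 -0.27, FCRLA 0.20, MZB1 0.19) had 3.77 to 3.85 and 3.75 to 3.84. Erythroid and megakaryocyte genes (7 of 16, median 0.01, AHSP 0.26, KLF1 0.17, EPB42 -0.15) had 3.34 to 3.59 and 3.34 to 3.47. In these 5 lists 0 genes passed by limma, and 3, 1, 0, 1 and 0 had an unadjusted p under 0.05 in the order given, against 14.7% of all genes. Array values have no true 0, so absence of these markers cannot be read, and their part in the members' values was not tested.

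**Figure D4:**
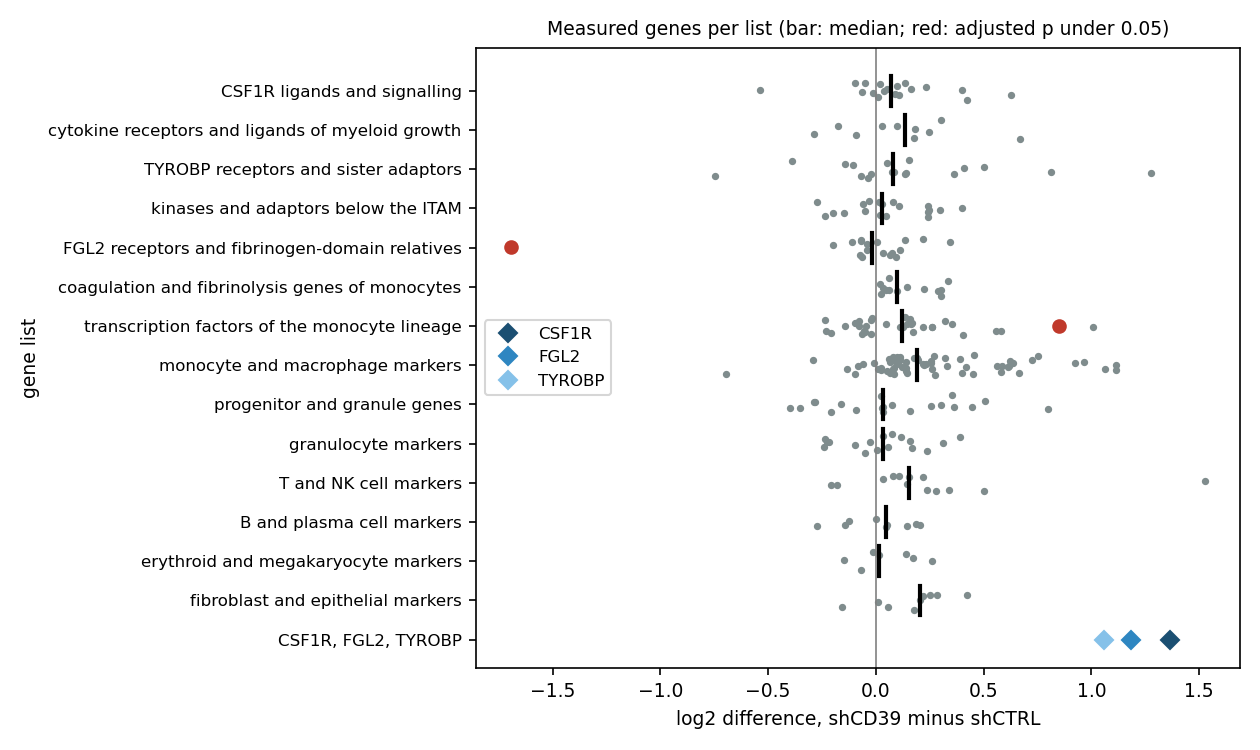
Log2 difference (shCD39 minus shCTRL, horizontal axis) of each measured gene of the 14 lists, 1 point per gene with the list's median as a bar, and of CSF1R, FGL2 and TYROBP in the lowest row; red points passed an adjusted p of 0.05. MFAP4 at -1.69 and TFEC at 0.85 are the red points, and the 3 members, chosen on this contrast, lie between 1.06 and 1.36.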

How the data were processed

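The authors deposited 1 log2 value for each probe set and array. RMA and the oligo package are named in the submitters' processing notes. For their versions, and for the array design and build, no source used here gives an answer. Per the labels' protocols, RNA was labelled with the GeneChip WT PLUS kit. RMA sets all arrays to a common distribution, so a difference is relative to the bulk of probe sets.

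Symbols came from the platform annotation, updated by Entrez ID to RefSeq (GRCh38.p14): 16098 probe sets had a single symbol and were used, and the other 37519 were not. Where several probe sets shared a gene, the brightest on average was taken. Promoter sequences are RefSeq's; 3 of 3 members matched. limma 3.58.1 in R 4.3.3 (lmFit, eBayes, 2-sided) was fitted to all 14884 genes with Benjamini-Hochberg adjustment; the threshold was 0.05. The procedure was tested on simulated data. Differences are shCD39 minus shCTRL, and SE is that of the fit. Figures used matplotlib 3.10.9 in Python 3.11.15.

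The members and the 14 lists (428 genes, 262 measured) were chosen with earlier results of these data known. Named genes are the members, ENTPD1, a fixed set of partners and markers, list genes that passed or otherwise the 3 largest differences, and the 5 nearest profiles per member; others are stated as chosen after their values were seen. Neighbouring genes and the order of arrays were added after the values were seen. Alternatives were other normalizations, probe set means, a filter on dim genes, array weights, a trended robust prior, the replicate number as a block and leaving out arrays. The number of arrays limits the precision.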

Additional observations from a re-analysis of the deposited data

Results flagged for a closer look

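In 7 of 118 groups of 4 arrays examined, 1 array stood apart from the other 3; chance flags about 1 in 20 such groups. FGL2 read 6.85 in shCTRL array 3, with the next control at 5.76. TYROBP read 9.06 in shCD39 array 4, with the next array of its group at 9.97. SPI1 stood apart in the same array, at 6.84 against 7.36 for the next.

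The others were PROS1 in shCTRL array 4 (5.79, next 5.35), LTF in shCTRL array 3 (2.19, next 1.79), CLDN4 in shCD39 array 1 (2.87, next 3.04) and CD14 in shCTRL array 2 (2.18, next 2.42).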

How the results depend on the processing

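The log2 differences of CSF1R, FGL2 and TYROBP moved by less than the SD pooled over both groups (0.53, 0.76 and 0.39) under the other normalizations, array weights and each left-out array. Probe set means and the block could not move them, since each gene has a single named probe set and the block is balanced over the groups. The dim filter and the robust prior were not applied to them. Under quantile, median and cyclic loess normalization they ran from 1.35 to 1.41, 1.17 to 1.26 and 1.04 to 1.12. The median of all genes shifted from 0.01 to between -0.01 and 0.02 under these scalings. The order of arrays within groups agreed in 30 of 36 comparisons under each of them.

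The list counts were less stable, and the causes were not tested unless stated. Leaving out 1 array gave 0 to 1 genes called in the CSF1R, TYROBP, FGL2, progenitor and T and NK lists, 0 to 4 among transcription factors and 0 to 10 among monocyte markers. With both arrays numbered 4 left out, the TYROBP list had 1, the transcription factors 3, the monocyte markers 9 and the T and NK list 1. Over all 14884 genes, 368 were called in that setting. Array weights gave 1 gene in the CSF1R list, 2 transcription factors and 3 monocyte markers. The filter on dim genes gave 1 in the CSF1R, 1 in the monocyte and 1 in the progenitor list and 0 transcription factors, as it removes TFEC. Quantile normalization gave 0 in the FGL2 and 0 in the transcription factor list, and cyclic loess 0 in the FGL2 list.

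With the replicate block 0 genes were called in the FGL2 and 0 in the transcription factor list, and 6 over all genes against 14. Deviations of same-numbered arrays correlated at -0.04 to 0.06, and 1 of 4 shCD39 arrays was nearest to its own number, so no general pairing by number was seen. Single genes differed: TYROBP ordered the arrays 2, 3, 1, 4 in both groups and ENTPD1 4, 3, 1, 2, while CSF1R and FGL2 changed order. The TYROBP order rests on small gaps between arrays 1 to 3. With the block the SE was 0.20 for CSF1R, 0.26 for FGL2 and 0.13 for TYROBP, against 0.29, 0.40 and 0.22 without it. Whether the numbers mark a shared batch was not tested. Over all genes, array weights gave 124 calls, the filter 64, cyclic loess 10 and quantile normalization 5, with 7 and 5 of the last pair higher, against 7 of 14 as deposited; leaving out 1 array gave 0 to 423.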
